A study of Sus scrofa with 14 samples.

Results

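JCHAIN-rich spots are places on mammary tissue sections where JCHAIN RNA was abundant. A spot is a small printed area of a Visium slide that catches the RNA lying above it, so it can hold several cells of different types or part of one. A spot was taken as JCHAIN-rich when it held at least 1000 unique molecular identifiers (UMIs, one for each captured RNA molecule), at least 2 JCHAIN UMIs and at least 200 JCHAIN UMIs per 1000000 UMIs (counts per 1000000, CPM). These measured JCHAIN values are what the spots were selected on. In section G90, 3789 of the 4634 spots with at least 1000 UMIs met the rule (4721 spots in the file), which is 81.8% (exact binomial 95% interval 80.6 to 82.9). In section PI2, 1787 of 2059 such spots met it (2248 in the file), which is 86.8% (85.3 to 88.2). Together these are 5576 of 6969 spots.

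Both sections came from mammary glands of sows in their second breeding cycle, with no treatment named. Section G90 was taken on gestation day 90 and section PI2 on involution day 2, after suckling had stopped, with 1 section of each stage. There is thus no replicate of a stage, and a difference between the sections cannot be told apart from a difference between 2 pieces of tissue. Single-nucleus RNA profiles of 10 glands, 2 at each of G90, L0 and L20 (lactation days 0 and 20), PI2 and PI7 (involution day 7), gave replicated libraries that the rule did not use. The sections held 42815421 UMIs (G90) and 17906403 UMIs (PI2). Every barcode of section PI2 (2248) also occurs in section G90; Visium slides are printed with a common set of barcodes, which mark places and not cells.

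JCHAIN encodes the joining chain that links immunoglobulin A and immunoglobulin M into the polymers that are carried into secretions. In the mammary gland, antibody-secreting plasma cells sit in the connective tissue beside the alveoli, where the epithelial chemokine CCL28 attracts cells that carry its receptor CCR10. The epithelial receptor PIGR takes up the polymers at the base of the alveolar cell and moves them into milk. Plasma cells are recognised by MZB1, a chaperone of antibody assembly, by the transcription factors IRF4, PRDM1 and XBP1, by the coactivator POU2AF1 and by TNFRSF17, a survival receptor. In the RefSeq annotation of Sscrofa11.1, JCHAIN is a protein-coding gene on chromosome 8 (67439405 to 67448628), MZB1 lies on chromosome 2 (141277541 to 141279652), POU2AF1 on chromosome 9 (39121422 to 39144636), TNFRSF17 on chromosome 3 (31137672 to 31141862) and PIGR on chromosome 9 (67553094 to 67574698).

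JCHAIN RNA was spread over nearly the whole of both sections, and its level per spot, which chose the spots and is described here without a test, covered a wide range. JCHAIN-rich spots of section G90 held a median of 7 JCHAIN UMIs, with a lowest of 2 and a highest of 187. Those of section PI2 held a median of 12, from 2 to 363. In CPM the median was 904 in section G90 (200.2 to 17862) and 1781 in section PI2 (208 to 50746). Summed over all JCHAIN-rich spots, JCHAIN made up 1150 CPM in section G90 (exact Poisson 95% interval 1139 to 1161) and 2457 in section PI2 (2434 to 2481). All intervals of shares and of summed UMIs cover counting error only.

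**Figure D1:**
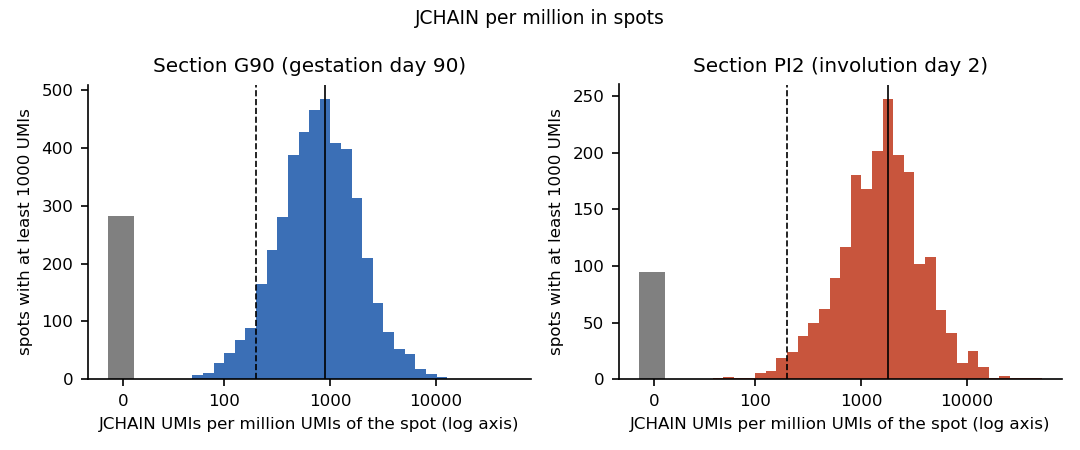
JCHAIN in CPM of the spot (log axis) against the number of spots with at least 1000 UMIs, for section G90 (left) and section PI2 (right). The grey bar holds spots with 0 JCHAIN UMIs (282 and 95), the dashed line marks the limit of 200 CPM and the solid line the median of the JCHAIN-rich spots (904 and 1781), so each section forms 1 broad peak that the limit enters at its low side.

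The limit did not cut through a gap. In section G90 the JCHAIN-rich spot nearest to it held 2 JCHAIN UMIs among 9990 UMIs (200.2 CPM), and the nearest spot outside held 4 among 20125 (199 CPM). In section PI2 these were 2 among 9638 (208 CPM) and 2 among 10189 (196 CPM). Spots with 1 JCHAIN UMI were left out even where they were shallow, up to 999 CPM. Exactly 2 JCHAIN UMIs were held by 424 JCHAIN-rich spots of section G90 and by 128 of section PI2. JCHAIN-rich spots held 98.2% of the JCHAIN UMIs of section G90 and 99.0% of those of section PI2, with 88.2% and 93.9% of all UMIs.

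Spots outside the rule were mainly shallow spots. The 282 spots with 0 JCHAIN UMIs in section G90 held a median of 2124.5 UMIs, against 9133 in JCHAIN-rich spots, and the 95 of section PI2 held 2105 against 7811. The median share of mitochondrial UMIs was 3.89% and 3.37% in spots with 0 JCHAIN, against 2.15% and 1.29% in JCHAIN-rich spots. At 1000 to 2500 UMIs, 41.1% of the spots of section G90 met the rule, while 91.2% did at 10000 UMIs or more, although JCHAIN summed over all spots of these depths was 941 and 997 CPM. In section PI2 the shares were 60.3% and 98.0%, at 2053 and 2418 CPM. The share of spots that met the rule thus followed depth, while the JCHAIN level followed it little. When every spot was thinned to 1000 UMIs, 25.5% of the spots of section G90 (24.2 to 26.8) and 48.9% of those of section PI2 (46.7 to 51.1) kept at least 2 JCHAIN UMIs. At least 1 was kept by 54.5% and 74.8%, against 93.9% and 95.4% without thinning.

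Set against spots with 0 JCHAIN of the same section and similar depth, JCHAIN-rich spots had few plasma cell genes past the fold used here. Starting from the deepest, each JCHAIN-rich spot was matched to the nearest unused spot with 0 JCHAIN within 10% of its own UMIs, which gave 281 pairs in section G90 and 95 in section PI2, and UMIs were summed over each side. The JCHAIN-rich side was the deeper one, with medians of 2360 against 2126 UMIs in section G90 and 2336 against 2105 in section PI2. A gene was called where its level in CPM differed at least 1.5-fold, among genes with at least 30 UMIs in both sums together. In section G90, 642 of 7116 genes were called higher (9.02%) and 365 lower (5.13%). Among 7 plasma cell identity genes tested there, 1 was called higher, MZB1, with 42 UMIs against 21 (ratio 1.81, exact 95% interval 1.05 to 3.21), and the median ratio of the list was 1.07 beside 1.05 over all genes. POU2AF1 had 7 UMIs against 6 and IRF4 had 6 against 5, too few to be tested. In section PI2, 570 of 2493 genes were called higher (22.9%) and 344 lower (13.8%), with 0 of 4 plasma cell identity genes in either direction and a median ratio of 1.22 beside 1.08 over all genes. MZB1 had 20 UMIs against 3 in that section (ratio 6.02, 1.78 to 31.6), below the 30 UMIs that the call needs. Summed over the list, the level was 606 against 590 CPM in section G90 and 1296 against 917 in section PI2. Abundant members weigh most in this sum. In spots of section G90 that kept 0 JCHAIN when thinned to 1000 UMIs, XBP1 was at 304 CPM and MZB1 at 25.1. When spots with 0 JCHAIN chose their partner instead, an alternative chosen after seeing the data, depths were equal (medians of 2580 in section G90 and 2103 against 2105 in section PI2). MZB1 was then at 26 against 21 UMIs in section G90 (ratio 1.24), under the fold, and at 24 against 3 in section PI2 (8.0), still below 30 UMIs. Other genes of the list were called higher, 1 of 7 in section G90 and 1 of 4 in section PI2. Beside them, 654 of 6841 and 511 of 2259 of all genes were called higher. With the first pairs thinned to 1000 UMIs a spot, the MZB1 ratio was 3.25 in section G90 and 2.5 in section PI2, which changed both its size and the order of the sections. Thinning can only lower the 42 against 21 and 20 against 3 MZB1 UMIs of these pairs, so both ratios rest on few UMIs. As IRF4, POU2AF1 and TNFRSF17 could not be tested in these shallow spots, the spots are named here by their rule and not as plasma cell spots.

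The genes that did pass the fold between these matched spots were mostly genes of few UMIs, and few were shared. Among 2165 named genes tested in both sections, 11 were called higher in both (0.508%) and 3 lower in both (0.139%). The 11 were led by PTGFRN, with 68 UMIs against 34 in section G90 and 24 against 12 in section PI2. None of the 11 belongs to a plasma cell list. The highest ratio in section G90 was 3.62, for COX11 (28 UMIs against 7) and CCDC85C (24 against 6). In section PI2 it was 6.50 for TBL3 (36 against 5), and ITIH4, which encodes a protein of the inter-alpha-trypsin inhibitor family, stood out for its depth with 243 against 59 (ratio 3.72).

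Genes of other tissue components differed between the matched spots in ways that were not alike in the sections. In section G90 the lowest ratio was that of DES, which encodes the muscle filament desmin, with 27 UMIs against 167 (0.146). Beside 5.13% of all genes lower there, fat cell genes were lower in 3 of 6 tested, ADIPOQ (0.584), PLIN1 (0.353) and PLIN4 (0.589), and 2 of 7 blood endothelium genes, PLVAP (0.537) and EMCN (0.553), were lower as well. In section PI2, where 22.9% of all tested genes were higher, this held for 3 of 6 macrophage genes, CSF1R (1.93), C1QA (1.74) and C1QB (1.51), and for 2 of 6 with mitochondrial genes taken out of the total. It also held for 2 of 7 myoepithelial genes, KRT14 (1.66) and TAGLN (2.28), and for 2 of 5 blood endothelium genes, ENG (1.71) and EMCN (2.11). The myoepithelial share is near that over all genes. The 1 red blood cell gene tested in section PI2 was higher as well (2.23). Of 10 luminal epithelium genes there, 2 were higher and 2 lower, beside 22.9% and 13.8% of all genes. PIGR was at 37 UMIs against 34 in section G90 (ratio 0.984, 0.601 to 1.62) and at 29 against 8 in section PI2 (3.27, 1.46 to 8.28). CCL28 was at 102 against 71 in section G90 (1.3, 0.950 to 1.78).

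Within the JCHAIN-rich spots, MZB1, POU2AF1 and TNFRSF17 were higher in the JCHAIN-richest spots than in the poorest, in MZB1 at each step. The spots of each section were put in order by JCHAIN CPM and split into 5 grades of equal size. From the lowest to the highest grade, MZB1 was at 23.0, 31.2, 36.0, 54.0 and 93.2 CPM in section G90. In section PI2 it was at 45.6, 62.2, 81.5, 103 and 171 CPM. The lowest grade of section G90 was thus at the level of spots with 0 JCHAIN (22.2, interval 13.7 to 33.9) and the interval of the highest (86.1 to 100.7) lay above all others. The share of spots with an MZB1 UMI went from 23.5% to 47.7% in section G90 and from 31.6% to 66.7% in section PI2, where 7.09% and 3.16% of the shallower spots with 0 JCHAIN had one. POU2AF1 was at 3.07 CPM in the lowest and 17.0 in the highest grade of section G90, and at 4.29 and 31.4 in section PI2. TNFRSF17 was at 1.38 and 6.55 in section G90 and at 1.88 and 22.7 in section PI2. Depth did not order the grades in the same way, with median UMIs of 11246 in the lowest and 8243 in the highest grade of section G90, and 8098.5 and 9612 in section PI2.

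**Figure D2:**
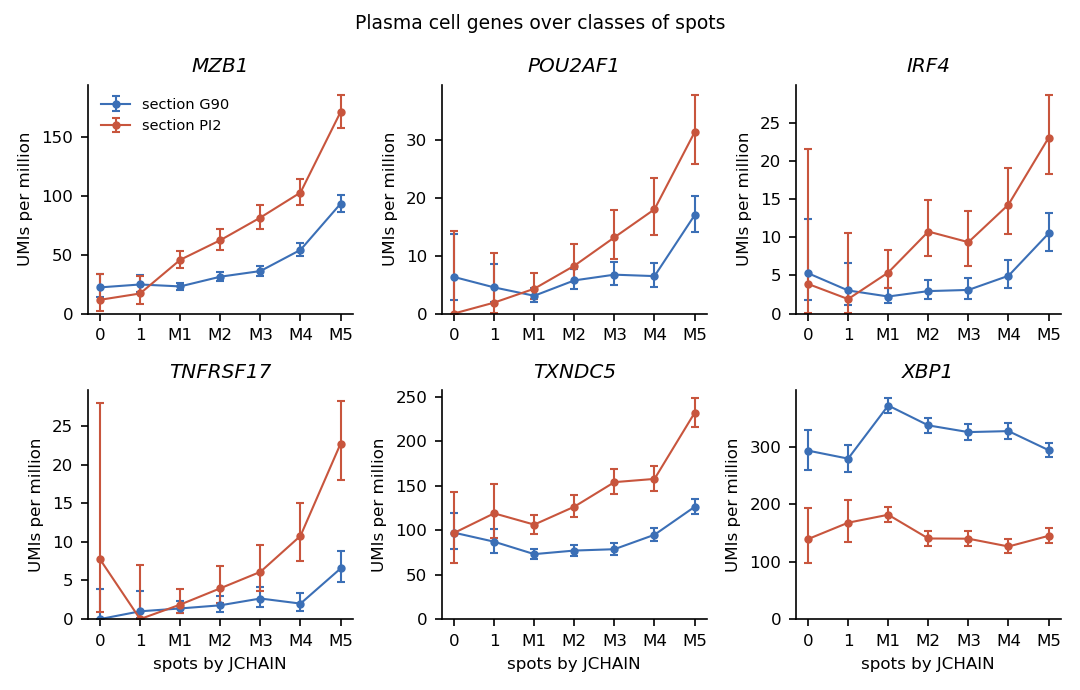
Level of 6 plasma cell genes (CPM of the summed spots, vertical axis) in spots with 0 JCHAIN UMIs, with 1, and in the grades of the JCHAIN-rich spots from the lowest (M1) to the highest (M5) JCHAIN CPM, for section G90 (blue) and section PI2 (red). Bars are exact 95% Poisson intervals, which cover counting error only; MZB1 goes from 23.0 to 93.2 and from 45.6 to 171 over the grades, while XBP1 does not go up.

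MZB1 kept this order at equal depth. With every spot thinned to 1000 UMIs, MZB1 in section G90 was at 25.1 CPM in spots that kept 0 JCHAIN UMIs, 36.5 in spots with 1, 56.7 in spots with 2 to 3 and 102 in spots with 4 or more (lower bound 65.8). In section PI2 the levels were 59.8, 59.9, 79.8 and 132 (98.8 to 174). The intervals of the first 2 classes overlap in both sections, and the last class stood above the first in both. POU2AF1 went from 5.69 to 24.4 CPM in section G90 and from 1.93 to 28.0 in section PI2, on at most 12 UMIs a class. For the 4 other plasma cell genes given here, the intervals of the first and last class overlap in each section. IRF4 was highest in the last class of both sections. TXNDC5 was at 131, 142, 158 and 188 CPM in section PI2, higher at each step, but at 95.7, 90.8, 99.5 and 110 in section G90. IRF4 was at 5.79, 7.49, 8.14 and 22.9 CPM in section PI2 (3 to 9 UMIs a class) and at 5.21, 4.47, 4.28 and 20.3 in section G90 (4 to 11). DERL3 was at 19.3, 11.2, 22.8 and 25.4 CPM in section PI2 and at 39.3, 39.5, 32.1 and 16.3 in section G90. XBP1 was at 162 in the first and 170.5 in the last class of section PI2, and at 304 and 260.2 in section G90.

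The richest spots were then compared with the poorer ones. The 10% of JCHAIN-rich spots with the most JCHAIN (378 in section G90, at 2414 CPM or more, and 178 in section PI2, at 4710 or more) held 30.7% and 34.2% of the JCHAIN UMIs of all JCHAIN-rich spots, with 9.07% and 10.5% of their UMIs. They were matched by depth to JCHAIN-rich spots of the lower 50%, which gave 350 pairs of section G90 (median 9275 and 9272 UMIs) and 178 of section PI2 (9681 and 9682). Summed JCHAIN was 3892 against 526 CPM in section G90 and 7975 against 1067 in section PI2, as the choice of spots sets. By the same 1.5-fold call, 432 of 10105 genes were higher (4.28%) and 287 lower (2.84%) in section G90. In section PI2, 211 of 8345 were higher (2.53%) and 1068 lower (12.8%). The ratio of all genes had a median of 0.00 on the log2 scale in section G90 and of −0.17 in section PI2, so a typical gene of section PI2 was itself lower in the richest spots.

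The richest spots also held 3 very abundant features without a symbol. They were picked as the abundant features without a symbol with the highest ratios in this same comparison. Taking them out of the total therefore had to raise the ratio of every other gene, and their part in the shift was not tested. In section PI2, ENSSSCG00000037775 was at 57462 against 10708 CPM and ENSSSCG00000038719 at 46752 against 10175. In section G90 the former was at 21879 against 3674 and the latter at 13701 against 2967. Neither the files nor the reference tables pair these identifiers with a name. With these 3 features taken out of the total, 375 genes were higher and 618 lower in section PI2. As a mean over spots of equal weight, 505 were higher and 1164 lower.

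Among the listed groups, plasma cell identity had the most genes called higher in the richest 10%. In section G90, 7 of 13 tested were called higher and 0 lower, with a median ratio of 1.62. In section PI2, 6 of 13 were called higher and 1 lower (ELL2, 0.667), with a median ratio of 1.33. With the 3 abundant features taken out, 7 of 13 were higher in section G90 and 6 of 13 in section PI2, beside 5.08% and 4.5% of all genes, and 0 were lower, beside 2.36% and 7.41%. Of the named genes tested in both sections, 18 of 7384 were higher in both (0.244%), and the 4 with the largest ratios by the lower of both sections were plasma cell genes.

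IRF4, the transcription factor that B cells need to become plasma cells, had 46 UMIs in the richest spots and 4 in the others in section G90 (ratio 11.5, 4.20 to 44.0). In section PI2 it had 61 against 14 (4.36). POU2AF1, the coactivator of immunoglobulin gene transcription, had 68 against 15 (4.53, 2.57 to 8.54) in section G90 and 67 against 18 (3.72) in section PI2. TNFRSF17, the receptor for survival signals from the ligand TNFSF13, had 26 against 7 (3.71) and 54 against 6 (9.0). MZB1 had the most UMIs of these, 396 against 91 (4.35, 3.46 to 5.53) in section G90 and 375 against 117 (3.20) in section PI2. TXNDC5, a disulfide isomerase of the endoplasmic reticulum, had 461 against 275 (1.68, 1.44 to 1.95) and 467 against 212 (2.20). These intervals do not include 1, and the direction was shared by the sections. EAF2, a transcription elongation factor, had 25 UMIs against 0 in section G90 and 13 against 0 in section PI2, at least 8.33-fold and 4.33-fold higher with the floor of 3 counts over the group, though with fewer than the 30 UMIs of the call.

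Other members of the list were near 1, lower, or called in 1 section. XBP1, which expands the secretory apparatus of plasma cells and of milk-producing epithelium alike, had 976 UMIs against 1143 in section G90 (ratio 0.854, 0.783 to 0.931) and 251 against 275 in section PI2 (0.913). SDC1, the surface proteoglycan CD138 that epithelium also carries, was at a ratio of 0.773 in section G90 and 0.891 in section PI2. CD79A, a part of the B cell receptor, had 158 against 158 in section G90 and 1074 against 1102 in section PI2 (0.974). DERL3, which takes misfolded proteins out of the endoplasmic reticulum, was at 1.1 in section G90 and 1.87 in section PI2. PRDM1 was called in section G90, with 34 against 21 (1.62, 0.913 to 2.87), and had 13 against 4 in section PI2, too few to be tested.

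No general secretory gene that was tested passed the fold in CPM over all UMIs. Of 12 tested genes of the antibody secretion machinery, 0 were called in either direction in either section, with median ratios of 1.07 and 1.02, and ratios from 0.691 to 1.43 in section PI2. Calls were also few among all genes of this comparison, with 4.28% higher and 2.84% lower in section G90, and 2.53% higher and 12.8% lower in section PI2. HERPUD1, a stress gene of the endoplasmic reticulum, was called higher in section PI2 with the 3 abundant features taken out (1.56). SSR4, of the complex that moves proteins into the endoplasmic reticulum, had 5043 UMIs against 5582 in section G90 (0.903). The chaperone HSPA5 had 538 against 636 there (0.846), and HERPUD1 had 618 against 509 (1.21). In section PI2 HERPUD1 had 164 against 115 (1.43, 1.12 to 1.83) and the transcription factor CREB3L2 had 47 against 68 (0.691, 0.466 to 1.02). Against spots with 0 JCHAIN in section PI2, 1 of 9 tested genes of this list was higher (2.16) and 1 lower, HSPA5 (0.620). Over all genes, 22.9% were higher and 13.8% lower there. Genes of this list are also used by the epithelium, and how much of their RNA came from each cell type in a spot was not tested.

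**Figure D3:**
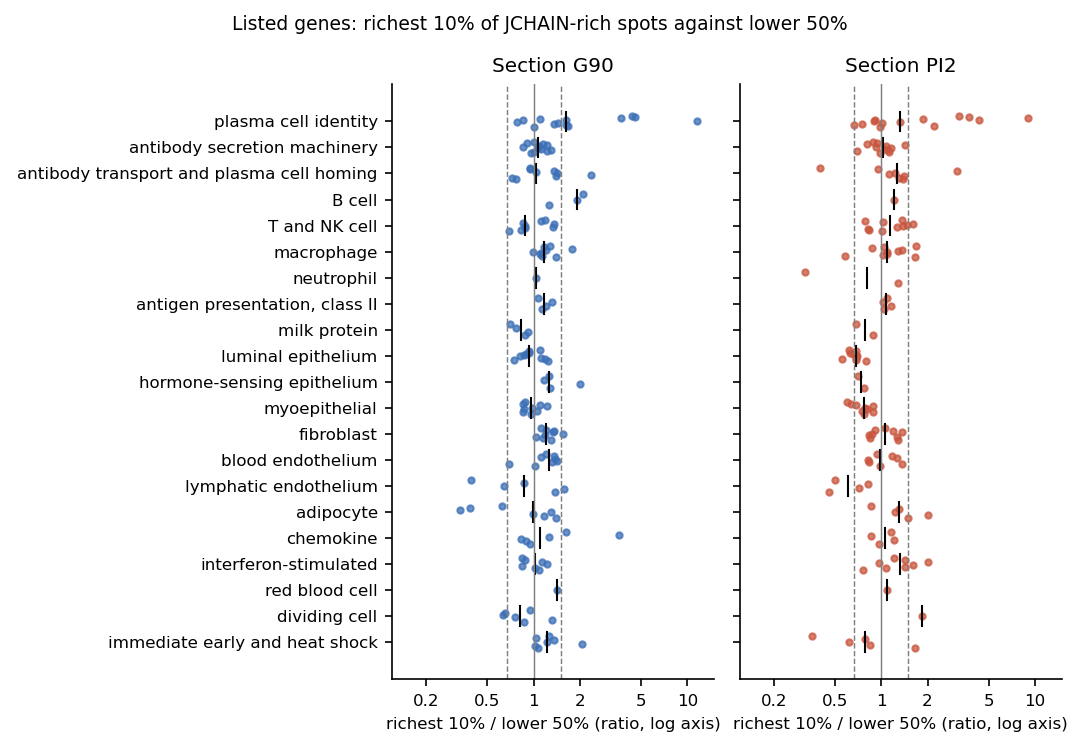
Ratio of the level in CPM in the richest 10% of JCHAIN-rich spots to that in depth-matched JCHAIN-rich spots of the lower 50% (log axis), with 1 point for each tested gene of each list, for section G90 and section PI2. Black bars are the median of a list and dashed lines the 1.5-fold limits; plasma cell identity reaches the highest ratio (11.5 and 9.0) and the luminal list of section PI2 has a median of 0.682.

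Genes for the homing and uptake of antibody split into several patterns. CCR10, the receptor through which plasma cells find the gland, had 25 UMIs against 8 in section PI2 (3.12) and 10 against 3 in section G90, too few for a call. ITGA4, an integrin subunit of homing lymphocytes, had 47 against 20 in section G90 (2.35) and 17 against 11 in section PI2. The ligand CCL28 was level, with 311 against 329 in section G90 (0.945) and 60 against 63 in section PI2 (0.952). Over the grades CCL28 stayed between 91.5 and 99.2 CPM in section G90 and between 31.9 and 36.2 in section PI2. VCAM1, an adhesion molecule of vessels and stroma, was at 1.42 and 1.41, and the chemokine CXCL12 at 1.35 and 1.23, all under the fold. With the 3 abundant features taken out of the total, VCAM1 (1.54) and the survival ligand TNFSF13 (1.52) passed it in section PI2, which made 3 of 8 genes of this list higher there in place of 1. Among all genes of that section, 4.5% were higher with these features taken out, in place of 2.53%.

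PIGR, the receptor that carries the polymers into milk, was lower in the JCHAIN-richest spots of section PI2. It had 94 UMIs against 236 there (53.0 against 133 CPM, ratio 0.398, 0.310 to 0.508), and 130 against 137 in section G90 (0.949). From the lowest to the highest grade it was at 186, 92.0, 69.2, 78.0 and 50.2 CPM in section PI2. In section G90 it went from 44.8 to 35.2. The spots with 1 JCHAIN UMI of section PI2 were as high as the lowest grade (189), with 100 PIGR UMIs that lay in 12.7% of these spots. Spots with 0 JCHAIN broke this order, as JCHAIN-rich spots of section PI2 were 3.27-fold higher in PIGR than depth-matched spots with 0. At 1000 UMIs a spot, PIGR of section PI2 was at 90.7 CPM (66.7 to 120.7) with 0 JCHAIN UMIs and at 48.3 (29.1 to 75.5) with 4 or more, with intervals that overlap. With the 3 abundant features taken out, the ratio in section PI2 was 0.437.

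Some epithelial genes were lower with PIGR in section PI2. Luminal epithelium genes were called lower in 4 of 10 tested, with a median ratio of 0.682, namely ALDH1A3 (0.554), the adhesion molecule EPCAM (0.612) and the keratins KRT8 (0.628) and KRT18 (0.659). Myoepithelial genes were lower in 2 of 9, KRT5 (0.602) and KRT14 (0.631). Over all genes 12.8% were lower in this comparison, which the myoepithelial share is near. With the 3 abundant features taken out of the total, 1 of 10 luminal genes (ALDH1A3) and 1 of 9 myoepithelial genes (KRT5) passed the fold, beside 7.41% of all genes. In section G90, 0 of 10 luminal genes were called, with a median of 0.927. The main whey protein gene PAEP was under 1 in both, with 0.878 and 0.883. Fewer cells of a type in a spot and less RNA in each cell cannot be told apart in these sums.

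**Figure D4:**
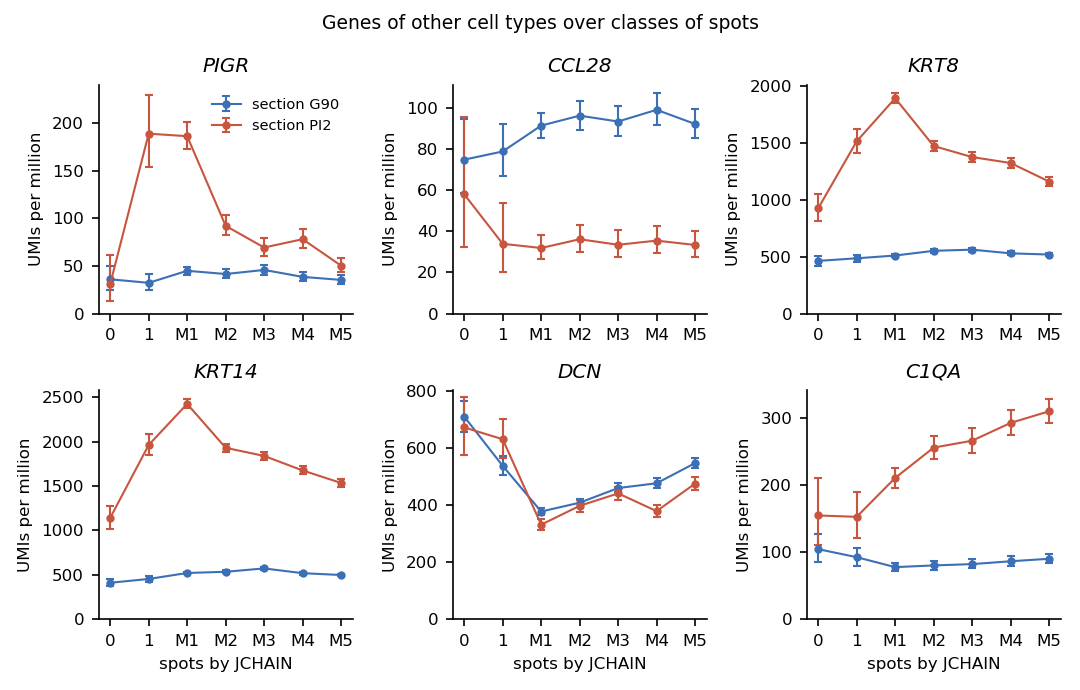
Level of PIGR, CCL28, the luminal keratin KRT8, the basal keratin KRT14, the fibroblast gene DCN and the macrophage gene C1QA (CPM of the summed spots) in spots with 0 and 1 JCHAIN UMIs and in the grades M1 to M5 of JCHAIN-rich spots, for section G90 (blue) and section PI2 (red). Bars are exact 95% Poisson intervals. In section PI2 PIGR goes from 186 to 50.2 and KRT8 from 1892 to 1160 over the grades, while C1QA goes from 211 to 311. Between the richest 10% and the lower 50% of section PI2, C1QA was under the fold (1.29) and the macrophage list had a median ratio of 1.09.

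Lists of other immune cells had 0 to 2 genes called higher in either section. Over all genes, 4.28% were higher and 2.84% lower in section G90, and 2.53% and 12.8% in section PI2. Of B cell genes, 2 of 3 tested were higher in section G90, the scaffold BANK1 (25 UMIs against 12, 2.08) and the transcription factor EBF1 (100 against 52, 1.92), which stroma also uses. In section PI2, 0 of 1 was called, and the B cell marker PAX5 had 0 UMIs in both sections. T and NK cell genes were called in 0 of 9 in section G90 and in 1 of 10 in section PI2, CD8A (32 against 20, 1.60). Of macrophage genes, 1 of 9 was higher in section G90, CD68 (1.77), and in section PI2, CD163 (1.69) and MRC1 (1.65) were higher and CD14 (0.580) was lower among 10. The class II antigen presentation genes were called in 0 of 4 in both. Of chemokine genes, 2 of 6 were higher in section G90 and 0 of 4 were called in section PI2. CXCL9, a chemokine induced by interferon gamma, had 43 against 12 in section G90 (3.58), and the lymphoid chemokine CCL19 had 190 against 117 there (1.62). Interferon-stimulated genes were called in 0 of 7 in section G90 and higher in 2 of 8 in section PI2, MX2 (2.0) and IFIT2 (1.61). With the 3 abundant features taken out of the total, 4 of 10 T and NK cell genes and 4 of 8 interferon-stimulated genes of section PI2 were higher, beside 4.5% of all genes. The neutrophil gene S100A12 was lower in section PI2 (0.320), 1 of 2 tested.

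Of the stromal and vascular lists, fibroblast genes and blood endothelium had 0 or 1 call, while lymphatic endothelium and fat cell genes each had 3 in section G90. Fibroblast genes were called in 1 of 9 in section G90, LUM (1.55), and in 0 of 9 in section PI2, with medians of 1.2 and 1.06. Blood endothelium was called in 0 of 8 and 0 of 7. In lymphatic endothelium, 3 of 5 genes were called in section G90, with MMRN1 (0.390) and LYVE1 (0.639) lower and PDPN (1.57) higher. In section PI2, 2 of 4 were lower, MMRN1 (0.50) and CCL21 (0.454). Beside 2.84% of all genes lower in section G90 and 12.8% in section PI2, the lymphatic shares were larger, on few genes. Higher were 4.28% of all genes in section G90 and 2.53% in section PI2. Fat cell genes were lower in 3 of 7 in section G90, PLIN4 (0.333), PLIN1 (0.387) and ADIPOQ (0.625), and higher in 1 of 5 in section PI2, PPARG (2.0). The others of section G90 were not called, with CD36 at 1.39, FABP4 at 1.29, PPARG at 1.17 and LPL at 0.988. The fat cell list of that section had a median ratio of 0.988 and a summed level of 913 against 799 CPM. Dividing cell genes were lower in 2 of 6 in section G90, TPX2 (0.629) and CENPF (0.650), and BIRC5, the 1 tested in section PI2, was higher (1.85). The whole dividing cell list of section PI2, BIRC5 included, had 28 UMIs against 33, so its sum did not go up with BIRC5. Of hormone-sensing epithelium genes, 1 of 4 was higher in section G90, FOXA1 (2.0), and 0 of 2 were called in section PI2. The red blood cell gene HBB was not called in either section in this comparison. Of the early response and heat shock genes, 1 of 7 was higher in section G90, HSPA6 (2.07), while in section PI2 FOS (0.354) and ATF3 (0.615) were lower and HSPH1 (1.65) was higher among 5. Milk protein genes were called in 0 of 4 and 0 of 2. With the 3 abundant features taken out of the total, ATF3 (0.675) in section PI2 and CENPF (0.671) in section G90 no longer passed the fold, while CD36 (1.63), a fatty acid transporter of fat cells, and the vessel receptor KDR (1.51) passed it in section PI2.

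Besides the plasma cell list, the genes higher in both sections include EVI2B (2.00 and 2.75), IL6R, the receptor of the plasma cell survival factor IL6 (1.53 and 2.29), and C4BPA, which encodes a complement regulator (280 UMIs against 164 and 452 against 268, 1.71 and 1.69). PTPRB, a phosphatase of endothelium, was also among them (1.75 and 1.74). The intervals of IL6R in section G90 (0.766 to 3.16) and of PTPRB in section PI2 (0.959 to 3.23) include 1. On the other side, 33 genes were lower in both (0.447%), led by CYP4B1, a fatty acid hydroxylase of the cytochrome family (0.269 and 0.382), ECRG4 (0.392 and 0.425) and MMRN1. The protease MMP7 was at 0.574 and 0.211. Against depth-matched spots with 0 JCHAIN, ECRG4 went the other way in section G90, with 34 UMIs against 9 (ratio 3.42).

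The nuclei of the 10 glands held JCHAIN RNA in every gland. Of 126833 nuclei, 6937 held at least 2 JCHAIN UMIs (5.47%), from 248 to 2114 in a gland, and 107524 held 0. Over all nuclei of a gland, JCHAIN of the G90 glands was at 70.9 and 27.9 CPM. The L0 glands had 199.8 and 119.8 CPM and the L20 glands 142 and 80.4 CPM. In involution, the PI2 glands had 99.0 and 147 CPM and the PI7 glands 294 and 270.4 CPM. Both glands of PI7 were above all others and both of G90 below all others, which is given without a test. Glands of a stage differed in milk protein RNA. In nuclei with 0 JCHAIN, the casein gene CSN2 was at 92.5 and 2440 CPM in the G90 glands, 191 and 3.76 in the L20 glands and 1.80 and 462 in the PI2 glands, and PAEP was lowest of all in L20 replicate 2 (31.2). The share of nuclei with at least 2 JCHAIN UMIs was 25.2% of the 1070 nuclei that carried 10 or more UMIs of the plasma cell list without JCHAIN, with a median over glands of 22.8% (4.26 to 48.8). It was 7.50% of 7922 nuclei with as many fibroblast UMIs (median 6.05%, 0.651 to 18.3) and 8.14% of 25256 with as many luminal UMIs (median 6.86%, 2.13 to 18.3), and the ranges over glands overlap. Within every gland, though, the share was highest in the nuclei of the plasma cell list. In G90 replicate 2 it was 4.26% against 0.651% and 2.13%, and in PI2 replicate 1 it rested on 2 of 10 nuclei. Median UMIs of these groups in a gland were 3143 to 11416, 1347 to 3053.5 and 2489 to 6549.5, and the shares were not compared at equal depth. The plasma cell list includes XBP1, which was at 48.3 to 321 CPM over the glands in nuclei with 0 JCHAIN. Nuclei with markers of other cell types thus also held 2 JCHAIN UMIs, and such nuclei are called JCHAIN nuclei here and not plasma cells. Of the 45 pairs of libraries, each shared 52 to 205 barcodes, at most 1.23% of the smaller library.

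Across glands, plasma cell genes were higher in JCHAIN nuclei, among them IRF4, MZB1, POU2AF1 and TNFRSF17, which led the richest spots. UMIs were summed in each gland over JCHAIN nuclei and over nuclei with 0 JCHAIN, and compared with the edgeR quasi-likelihood test with the gland as a block. At an adjusted p under 0.05 and a log2 fold change beyond 1, 28 of 16836 genes rose (0.166%) and 34 fell (0.202%), with a median log2 fold change of −0.03 over all genes. Without the block, 6 genes rose and 0 fell. The number that fell ranged from 5 (without G90 replicate 1) to 40 with a gland left out, and was 8 with DESeq2 and 133 without a low-count filter. Of the 14 plasma cell identity genes tested, 7 rose and 0 fell, with a median of 1.09. No gene of the other lists passed both limits in either direction, in lists with medians from −0.73 (lymphatic endothelium) to 0.43 (neutrophil).

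At an adjusted p under 0.05 (edgeR) with no limit on the fold, 163 genes were higher (0.968%) and 311 lower (1.85%), and 11 of 14 plasma cell identity genes were among the former. So were 6 of 13 genes of the antibody secretion machinery, among them HERPUD1 (0.59, adjusted p = 6.3e-05) and the disulfide isomerase PDIA4 (0.62, adjusted p = 0.0024). On the lower side were 6 of 6 lymphatic endothelium genes, such as CCL21 (−0.71, adjusted p = 6.6e-04), 4 of 13 T and NK cell genes, such as KLRK1 (−0.87, adjusted p = 0.0012), 3 of 8 blood endothelium genes and 1 of 9 B cell genes, PAX5 (−0.72, adjusted p = 0.014, lower in 10 of 10 glands).

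MZB1 was at 3.49, 20.4 and 109 CPM in the lowest, median and highest gland of JCHAIN nuclei, and at 0.437, 1.87 and 7.34 in nuclei with 0 JCHAIN. The ranges overlap between glands, yet MZB1 was higher in JCHAIN nuclei within 10 of 10 glands, by 3.65 ± 0.27 (SE) on the log2 scale with an adjusted p of 4.0e-10 (edgeR). IRF4 was at 9.08, 36.4 and 169 against 1.07, 3.31 and 10.0 CPM, with a log2 fold change of 3.60 ± 0.25 and an adjusted p of 2.1e-10. POU2AF1 was at 3.49, 17.9 and 128 against 0.291, 1.96 and 5.86, with 3.41 ± 0.27 and an adjusted p of 2.0e-09. The 2 glands of PI2 hold the lowest and the highest value of these 3 genes in JCHAIN nuclei, with MZB1 at 3.49 in replicate 1 and 109 in replicate 2.

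Further rises were TNFRSF17 by 3.14 ± 0.26 (edgeR adjusted p = 6.3e-09), SLAMF7, a surface receptor of plasma cells and NK cells, by 1.73 ± 0.28 (5.2e-04, higher in 8 of 10 glands), DERL3 by 1.58 ± 0.20 (2.4e-05) and TXNDC5 by 1.27 ± 0.13 (6.2e-07). PRDM1 was higher by 0.76 in 10 of 10 glands (adjusted p = 0.0041) without reaching a log2 fold change of 1. XBP1 was higher by 0.24 (adjusted p = 0.078). Genes outside the lists that rose, named after their values were seen, were SLC15A2, a peptide transporter (3.08), the endoplasmic reticulum chaperone CLGN (2.47), RAB26 of secretory vesicles (2.26) and TENT5C, which lengthens the tails of immunoglobulin messages (1.58). Of the 3 abundant features of the richest spots, ENSSSCG00000036224 rose by 4.07 and ENSSSCG00000037775 by 3.63 in 10 of 10 glands, while ENSSSCG00000038719 had 0 to 3 UMIs in each sum of nuclei. JCHAIN nuclei were deeper than nuclei with 0 JCHAIN in 9 of 10 glands, with medians of 1480.5 to 4100 UMIs against 1354 to 2453, and the part of depth in these results was not tested.

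**Figure D5:**
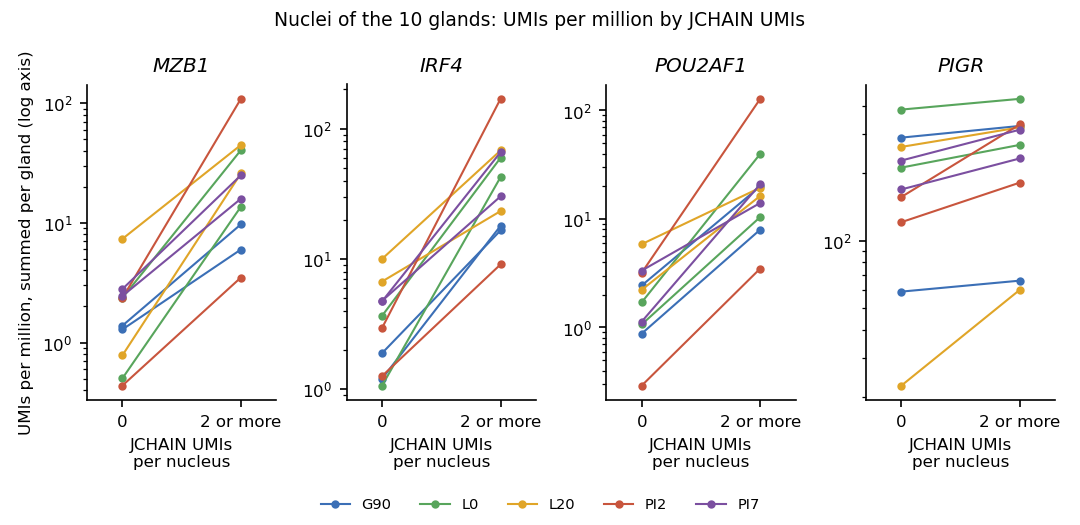
Level of MZB1, IRF4, POU2AF1 and PIGR (CPM, log axis) summed over nuclei with 0 JCHAIN UMIs and over nuclei with 2 or more, joined by a line for each of the 10 glands and coloured by stage. All 4 genes are higher in JCHAIN nuclei in 10 of 10 glands, by log2 fold changes of 3.65, 3.60, 3.41 and 0.51.

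PIGR was higher in JCHAIN nuclei than in nuclei with 0 in 10 of 10 glands, but by 0.51 ± 0.09 on the log2 scale (edgeR adjusted p = 0.0016), which is under the limit of 1. Without the gland as a block it was at 0.40 with an adjusted p of 1.0 (edgeR). Some genes of the epithelium and of milk moved with it, namely PAEP by 0.51 (higher in 10 of 10 glands, edgeR adjusted p = 0.0086), KRT8 by 0.41 (9 of 10, 0.030) and LTF by 0.28 (9 of 10, 0.024). Of their lists, 2 of 12 luminal epithelium and 1 of 4 milk protein genes were higher at an adjusted p under 0.05, beside 0.968% of all genes. Hormone-sensing epithelium had 0 of 6. With nuclei of over 1% milk protein UMIs left out, PIGR was at 0.45 with an adjusted p of 0.0065 (edgeR). CCL28 was higher by 0.13 (adjusted p = 0.57) and CCR10 by 1.48 ± 0.43 (adjusted p = 0.057, higher in 6 of 10 glands). Of the 18 genes higher in both sections, 16 were tested in the nuclei. Of these, 6 rose past both limits, among them IRF4, MZB1, POU2AF1, TNFRSF17 and TXNDC5, and 8 had an adjusted p under 0.05 and a positive fold change. Among all genes these shares were 0.166% and 0.968%. PTPRB went the other way, lower by a log2 fold change of −0.51 (adjusted p = 0.024). Of the 33 genes lower in both sections, 31 were tested and 0 passed both limits, with 2 lower at an adjusted p under 0.05. Among all genes, 0.202% fell past both limits and 1.85% were lower at an adjusted p under 0.05.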

How the data were processed

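For 1 tissue section of G90 and 1 of PI2 the authors deposited UMI counts for each gene and spot (Visium, Space Ranger, named as version 1.2.0 in the submitters' processing notes; other places name other versions), and for nuclei of 10 glands UMI counts for each gene and barcode (GEXSCOPE libraries, CeleScope), both on Sscrofa11.1 and without normalization. Milk libraries were not used here, nor were spot positions. The spots and gene lists were chosen with earlier results of these data known. The comparison of the richest 10% with the lower 50%, the grades and their alternatives were added after the data were seen.

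UMIs were summed over spots and scaled to CPM. Spots were matched 1 to 1 by UMIs, within 10% of the JCHAIN-rich spot and from the deepest down. Ratios carry exact conditional binomial intervals and levels exact Poisson intervals, at 95%. Spots of 1 section are not replicates, so sections carry no p-value. A call needed at least 1.5-fold and 30 UMIs in both sums together, and a sum of 0 was set to 3 counts. Nuclei needed 300 genes and at most 25% mitochondrial UMIs, without doublet removal. They were tested with edgeR 4.0.16 (TMM, its low-count filter, Benjamini-Hochberg) on sums per gland. Both sums come from the same gland, which is the pairing. JCHAIN was left out of that test. The SE of a log2 fold change was derived as its absolute size over the square root of the F statistic, as the test itself gives none. The methods call the animals of a stage independent, but the labels do not tie libraries to animals, so p-values may measure only the spread between these samples.

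Named genes were the listed genes, in each section the 10 highest and 5 lowest ratios against spots with 0 JCHAIN, and genes past 1.5-fold in both sections. From these, examples were printed, and others are marked. Some genes have no symbol in the files or tables. No immunoglobulin gene was named for that reason, so the planned immunoglobulin result holds PIGR, MZB1 and the lists. Genes that overlap others or have near-identical copies may share reads. Alternatives were other limits on UMIs and JCHAIN, thinning, other totals, nuclei without those of over 1% milk protein UMIs, unmatched spots, DESeq2 1.42.0, no filter, no block and each gland left out. Python 3.11.15 and R 4.3.3 were used, and the fits were tested on simulated data.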

Additional observations from a re-analysis of the deposited data

Results flagged for a closer look

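Listed genes that passed 1.5-fold in opposite directions in the 2 sections are given here, and the difference between the sections was not tested, since each stage has 1 section. Between JCHAIN-rich spots and depth-matched spots with 0 JCHAIN, the lymphoid chemokine CCL19 was at a ratio of 0.388 in section G90 (48 UMIs against 112) and 2.26 in section PI2 (25 against 10). The epithelial cadherin CDH1 was at 1.85 (200 against 98) and 0.632 (28 against 40). The vessel gene EMCN was at 0.553 (22 against 36) and 2.11 (21 against 9), and the smooth muscle gene TAGLN at 0.638 (876 against 1242) and 2.28 (658 against 260). Between the richest 10% and the lower 50%, the elongation factor ELL2 was at 1.63 in section G90 (104 against 64) and 0.667 in section PI2 (12 against 18, interval 0.293 to 1.46), and at 0.731 there with the 3 abundant features without a symbol taken out of the total.

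Spots with under 1000 UMIs, which the rule leaves out, also held JCHAIN. In section G90, 87 such spots held 54 JCHAIN UMIs, which is 756 CPM (568 to 986). In section PI2, 189 such spots held 224, which is 1895 CPM (1655 to 2160).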

How the results depend on the processing

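The share of JCHAIN-rich spots was 80.6% in section G90 and 83.5% in section PI2 with at least 500 UMIs, 86.0% and 91.3% with at least 2000, 72.6% and 80.6% with at least 3 JCHAIN UMIs, 63.5% and 81.9% with at least 500 CPM, and 25.5% and 48.9% after thinning to 1000 UMIs. Against spots with 0 JCHAIN, section G90 had 1673 higher and 1749 lower without matching, 307 and 172 after thinning, 1308 and 927 with at least 10 UMIs per gene, and 97 and 55 with at least 100. Section PI2 had 2465 and 3933, 96 and 73, 1496 and 1435, and 95 and 73. Thinning and the UMI limits change how many genes are tested. For the richest spots, the richest 20% in place of 10% gave 286 higher in section G90, and no matching gave 525 lower in section G90 and 1738 in section PI2. Without the 3 features without a symbol, section PI2 had 375 higher and 618 lower, and as a mean over spots 505 higher. Against spots with 0 JCHAIN, the ratio of MZB1 was 3.25 in section G90 and 2.5 in section PI2 after thinning, both on few UMIs. It was 3.53 in section PI2 as a mean over spots, and 1.81 and 6.02 as reported for the 2 sections. The ratio of PIGR in section PI2 was 2.0 after thinning and 2.18 as a mean over spots, beside 3.27. Matching from the spots with 0 JCHAIN gave 654 higher and 371 lower in section G90, 511 and 339 in section PI2, and MZB1 ratios of 1.24 and 8.0. MZB1 was at 3.37 in section G90 with the richest 20%, chosen after seeing the data as were the other settings of the richest spots.

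In the nuclei, the fit without the gland as replicate block called 6 higher and 0 lower (edgeR; 53 higher and 68 lower at an unadjusted p under 0.05), at least 1 JCHAIN UMI gave 13 and 16, no low-count filter gave 133 lower, and DESeq2 gave 8 lower. Leaving out 1 gland gave 24 to 31 higher and 5 to 40 lower, with 5 without G90 replicate 1, 7 without PI7 replicate 1, 15 without L20 replicate 2 and 22 without G90 replicate 2. Causes were not tested. MZB1, IRF4, POU2AF1 and TNFRSF17 stayed past both limits in each of these fits, MZB1 at log2 fold changes of 3.40 to 3.82 with a gland left out. With at least 1 JCHAIN UMI they were smaller, at 2.49, 2.48, 2.26 and 2.11 in this order. PIGR lost its adjusted p under 0.05 without the block. No called direction reversed among the results recomputed. With 1 section for each stage, depth and counting error bound what the section ratios show.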
